A study of Homo sapiens with 5 samples.

Results

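The MYC and MAX network is a family of transcription factors that bind DNA in pairs, with MAX or MLX as the common partner. Its genes MYC, MYCN, MYCL, MAX, MXD1, MXD3, MXD4, MXI1, MNT and MLX were taken by name, 10 of 20098 annotated protein-coding genes, and every Fra-1, MYC or E2F1 peak that overlapped one of them or lay up to 50 kb to either side was collected. This gave 18 of 17320 Fra-1 peaks, 22 of 4867 MYC peaks and 75 of 36933 E2F1 peaks. By their labels, all libraries came from untreated LM2 cells, a lung-metastatic derivative of the human breast cancer line MDA-MB-231, and chromatin immunoprecipitation and sequencing (ChIP-Seq) was done with an antibody against Fra-1, c-Myc or E2F1. There was 1 library per factor and 1 input DNA library that served as the control for all 3 factors, so no value below has a replicate and no test between factors was possible. An EZH2 library belongs to the same series, and for it no peak list was used here.

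Each peak has a summit, the position of its highest fragment pileup, and a fold enrichment, the pileup at the summit over the local background expected from the input. After filtering, the Fra-1 library held 12931227 tags, the MYC library 23853621, the E2F1 library 18056168 and the input 10758036, and the lowest pileup called was 5 in every list. The 95% intervals given with fold enrichments are Poisson intervals of the number of ChIP fragments at the summit. These numbers were recovered from pileups deposited as whole numbers after scaling and are approximate, and so are the intervals. They cover counting error only, treat the background as known, and are too narrow for a summit, which is chosen as a maximum. The factor with the deepest library, MYC, had the fewest peaks, and fold enrichments were compared between genes within a library rather than between libraries. A peak was called a promoter peak where it overlapped the window from 2 kb upstream to 2.5 kb downstream of any annotated transcription start site (TSS) of a member. The remaining peaks were gene body peaks where they touched the gene and flank peaks otherwise.

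MYC, MYCN and MYCL are oncoproteins that dimerize with MAX, bind the E-box CACGTG and related sequences, and mostly raise transcription. MXD1, MXD3, MXD4, MXI1 and MNT also pair with MAX at E-boxes, but recruit SIN3 and histone deacetylase corepressors and thereby oppose MYC, and MLX is an alternative partner for some of them and for the glucose-responsive factors MLXIP and MLXIPL. Fra-1 belongs to the AP-1 family, which binds TGACTCA or its reverse complement TGAGTCA, and E2F1 drives cell cycle genes from GC-rich promoter sites, the MYC gene being a classic E2F target.

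Sequences are shown here for some of the promoter and gene body summits that held a searched motif, since they let these sites be compared across factors and genes. The promoter results below rest on the position of the peaks and not on these sequences. They are read 5′ to 3′ on the plus strand of GRCh37 (hg19), with the motif in capitals and the bases around it in lower case. The first lines are E-boxes or the variant CACGCG under MYC or E2F1 summits, the next are E2F motifs under summits of both MYC and E2F1, and the last are AP-1 motifs under Fra-1 summits.
MAX promoter, upstream, E-box under an E2F1 summit, chr14:65569568-65569595: ggaagacaggaCACGTGgagggagctgg
MNT promoter, intron, E-box under an E2F1 summit, chr17:2303923-2303950: cggccgctcacCACGTGctctctgttgt
MNT promoter, intron, E-box variant under a MYC summit, chr17:2303552-2303579: acacgcacgcaCACGCGagcctgccacc
MLX promoter, exon, E-box variant under a MYC summit, chr17:40719323-40719350: agctctcacccCGCGTGtgccaaggtgg
MXI1 promoter, intron, E-box variant under a MYC summit, chr10:111971068-111971095: tcttctgacgtCACGCGttgctggggcc
MXD3 promoter, intron, E2F motif under MYC and E2F1 summits, chr5:176739431-176739460: cacacgttcggGCGGGAAAagaagcaggtt
MNT promoter, intron, E2F motif under MYC and E2F1 summits, chr17:2296741-2296770: ccccggggctgTTTGCCGCccagtcaaatc
MXD3 promoter, upstream, AP-1 motif under the Fra-1 summit, chr5:176739815-176739843: tcagctgtgtaTGACTCAggaggtgacct
MAX intron, AP-1 motif under Fra-1 and E2F1 summits, chr14:65528975-65529003: accttaacttaTGACTCAggatttattca
MXD1 intron, AP-1 motif under Fra-1 and E2F1 summits, chr2:70145180-70145208: catttccttcaTGACTCAtttggaatagc
MXD1 intron, AP-1 motif under a Fra-1 summit, chr2:70161645-70161673: agtataaaaaaTGACTCAgtaaaaacccc
MXI1 intron, AP-1 motif under a Fra-1 summit, chr10:111981806-111981834: ttaggcaaggcTGACTCActgggcgaggg
The AP-1 motif of the MXD3 promoter was 2 bp from the Fra-1 summit.

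MYC occupied the promoters of its partner MAX, of the antagonists MXD1, MXD3, MXI1 and MNT, and of MLX, which made 6 of 10 members against 17.8% of all protein-coding genes. None of the 3 MYC family genes had a MYC promoter peak. E2F1 occupied the promoters of 8 of 10 members, all but MYCN and MYCL, where 61.3% of protein-coding genes had such a peak. Fra-1 had a promoter peak at 1 of 10 members, MXD3, against 13.2% of protein-coding genes. MXD3 was thus the 1 member of 10 with promoter peaks of all 3 factors, a pattern found at 4.67% of protein-coding genes. The members have more annotated start sites than most genes, with a median of 8.5 against 5, and a larger promoter window gives more room for a peak. When every list was reduced to 4857 peaks, the length of the shortest, MYC kept its 6 members (17.8% of genes), E2F1 kept MYC and MXD3 (25.6% of genes), and Fra-1 kept none (3.41% of genes). The MYC list is the shortest and was not shortened by this step.

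**Figure D1:**
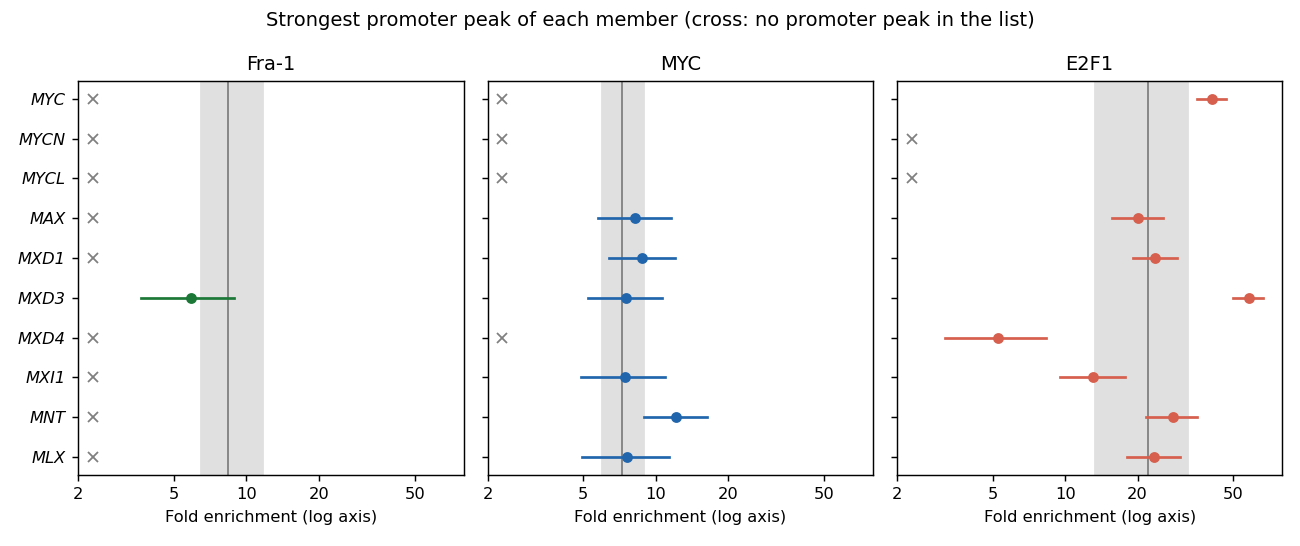
Strongest promoter peak of each of the 10 members in the Fra-1, MYC and E2F1 libraries. Points are fold enrichments on a log axis, bars are 95% Poisson intervals for counting error, grey bands and lines are the quartiles and the median over all protein-coding genes with a promoter peak of that factor, and crosses mark members without a promoter peak. The 6 MYC values lie between 7.47 and 12.2, while the 8 E2F1 values spread from 5.27 to 58.0.

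The 6 members with a MYC promoter peak spanned a narrow range of enrichment. MNT had the strongest MYC peak, at 12.2-fold (8.90 to 16.4), higher than at 91.1% of the 3587 protein-coding genes that MYC occupied at the promoter. It was followed by MXD1 at 8.79-fold (6.41 to 12.0), MAX at 8.22-fold (5.73 to 11.6), MLX at 7.61-fold (4.96 to 11.4), MXD3 at 7.49-fold (5.22 to 10.6) and MXI1 at 7.47-fold (4.90 to 10.9). These 5 lay between the 55.1 and 72.9 percentiles, near the median of 7.22 over all bound genes (quartiles 6.003 and 8.97), and all 6 intervals overlapped, so their order was not resolved at this depth. The strongest MYC peaks rested on 20 to 40 fragments at the summit. Each value, here and for E2F1, is the highest of a gene's promoter peaks, and MNT had 6 MYC peaks in windows of 17.3 kb. More peaks in wider windows give more room for a high value.

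In the E2F1 library, the 8 members ranged from 5.27- to 58.0-fold, in a library where the quartiles over all bound genes also lay far apart, at 13.4 and 32.5. MXD3, a repressor expressed in proliferating cells, stood at 58.0-fold (50.04 to 66.6), above 97.8% of the 12321 protein-coding genes that E2F1 occupied there, and its interval overlapped that of no other member. MYC came next at 40.7-fold (35.2 to 46.5), the 87.7 percentile. MNT at 28.1-fold (21.7 to 35.4), MXD1 at 23.7-fold (19.1 to 29.1), MLX at 23.4-fold (18.0 to 30.1) and MAX at 20.03-fold (15.6 to 25.5) had overlapping intervals around the median of 22.02 over all bound genes. MXI1 at 13.0-fold (9.501 to 17.8) lay at the 23.8 percentile. MXD4 had the weakest peak, 5.27-fold (3.16 to 8.29) at the 1.78 percentile, and its interval lay below those of the other members. The Fra-1 peak at MXD3, at 5.88-fold (3.64 to 8.88), was in the lower part of the Fra-1 range, at the 16.3 percentile.

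**Figure D2:**
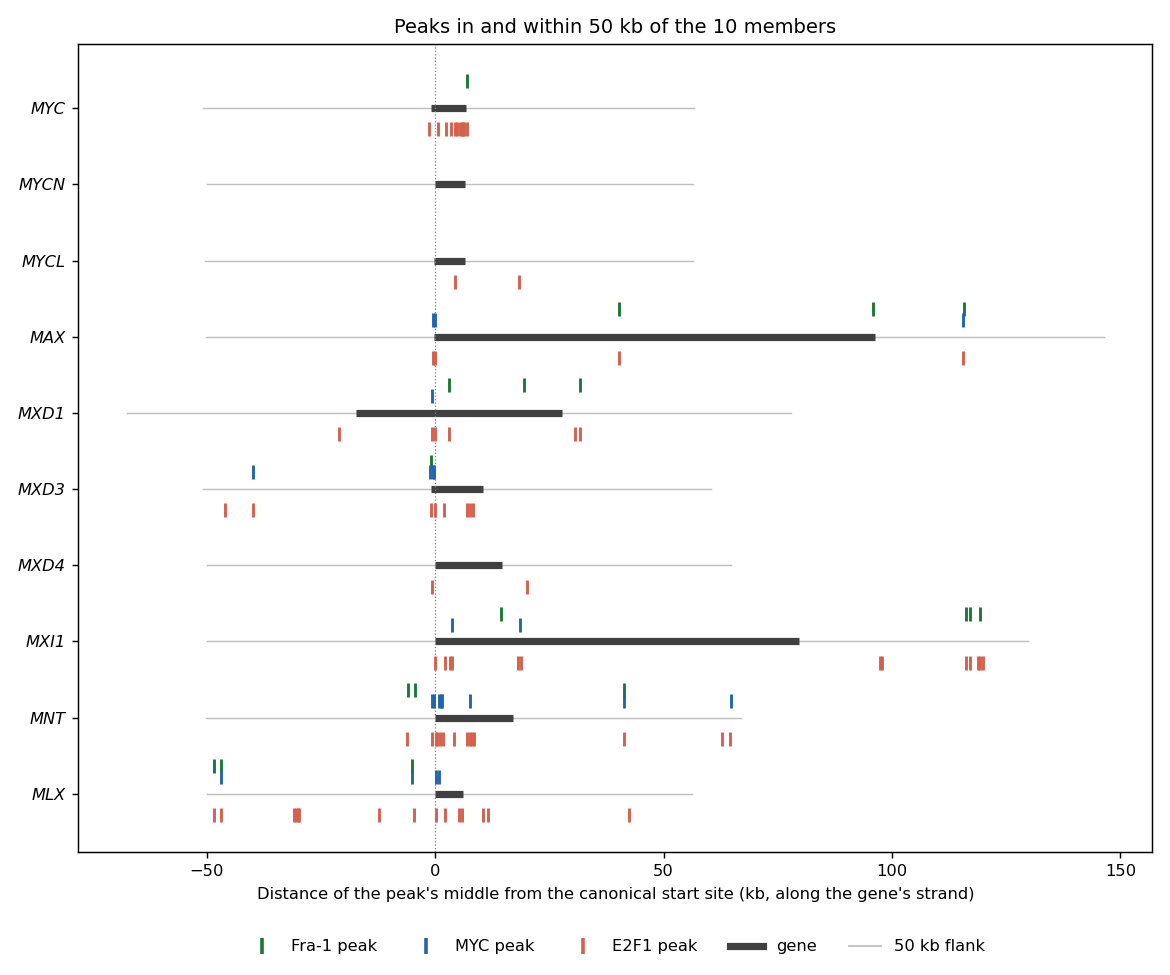
Peaks in and within 50 kb of each member, by distance in kb from the canonical TSS along the strand of the gene. Ticks mark Fra-1, MYC and E2F1 peaks, thick bars the gene and thin lines the 50 kb flanks. MYC ticks sit at the start sites or in the flanks of MAX, MXD1, MXD3, MXI1, MNT and MLX, MYCN has no tick, and at MYC only E2F1 ticks cover the gene, with 1 Fra-1 tick at its end.

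The MYC gene (chr8:128747680-128755197, plus strand) carried E2F1 peaks along most of its length and no MYC peak. In the E2F1 library it had 7 promoter peaks, 3 gene body peaks and 1 flank peak. The 7 promoter peaks spanned 6590 bp in sum, and 1.20% of protein-coding genes had as many. The strongest E2F1 peak, 1692 bp wide, had its summit in an exon 41 bp downstream of the canonical TSS, with 201 fragments. The peak upstream of it was 1887 bp wide at 14.1-fold (11.7 to 17.0), and the peak downstream 1831 bp wide at 14.7-fold (11.2 to 19.2). The other 7 peaks in the gene were 114 to 497 bp wide and between 4.87- and 10.4-fold. Of the 7 promoter peaks, 6, all but the last, also lay in promoter windows of CASC11, a non-coding gene that starts beside MYC, so they cannot be given to 1 of these genes alone. The background recovered at the strongest peak was 1.98 in units of the pileup scaled to the input, which was 120 at the summit. This background was above that of 83.2% of E2F1 promoter peaks, and its part in the result was not tested.

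In the MYC library, no peak lay in the MYC gene or within 50 kb of it. The nearest MYC peak stood 51.7 kb away at 11.5-fold, just outside the limit, in a promoter window of PVT1, a non-coding gene downstream of MYC (PVT1 was named after its position was seen). At a background like the median of the 10 E2F1 peaks in this gene (1.45), the MYC list held peaks down to a pileup of 8. The Fra-1 list held them down to 9, so weaker occupancy could not have been detected. The background was higher at the strongest E2F1 peak (1.98) and at the peak upstream of it (3.95). The limit at these 2 places was not calculated. In the Fra-1 library, 1 peak of 7.32-fold lay 139 bp past the end of the gene, and an E2F1 peak of 4.37-fold (3.13 to 6.10) overlapped it. Fra-1 thus had a peak at the end of MYC and none in its promoter windows.

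MYCN (chr2:16080672-16087129), the MYC gene of neural tissue, had no peak of any factor in the gene or within 50 kb. The nearest Fra-1 peak was 209.8 kb away, the nearest E2F1 peak 209.7 kb and the nearest MYC peak 348.7 kb. MYCL (chr1:40361100-40367928, minus strand), the third family gene, had no promoter peak either. It had an E2F1 peak of 9.15-fold (5.83 to 13.7) with its summit in an exon, 4531 bp downstream of the TSS, where MYCL-AS1 has a promoter window. The other E2F1 peak near MYCL, 33.9-fold (28.0 to 40.8), lay 11.7 kb away in the promoter of TRIT1. The nearest MYC peak to MYCL was 52.7 kb away, again just outside the limit, and the nearest Fra-1 peak 95.3 kb.

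MAX (chr14:65472892-65569413, minus strand) encodes the obligate partner of MYC. It had 2 MYC promoter peaks of 8.22-fold and 8.17-fold (5.74 to 11.2), with summits 60 and 457 bp upstream of the canonical TSS, and an E2F1 peak over each, of 20.03-fold and 15.4-fold (11.6 to 20.3). The summits of MYC and E2F1 differed by 33 and 75 bp. Fra-1 was found only inside the gene and in the flank, with intronic peaks of 5.66-fold (3.72 to 8.15) and 11.7-fold (7.72 to 16.7), each with an AP-1 motif at its summit. The second of these coincided with an E2F1 peak of 7.65-fold with 23 fragments at its summit.

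MXD1 (chr2:70124820-70170077, plus strand), the founding antagonist, showed 1 MYC promoter peak of 8.79-fold, 632 bp upstream of the canonical TSS. An E2F1 summit of 23.7-fold lay 11 bp from it, and a second E2F1 peak of 16.0-fold (12.3 to 20.4) covered the TSS, where no MYC peak was called. The MYC peak and both E2F1 peaks also overlapped a promoter window of snoU13, so they cannot be given to MXD1 alone. Fra-1 again had no promoter peak. Its intronic peaks were 3.69-fold (2.29 to 5.48) and 9.67-fold (5.95 to 15.6), and a flank peak of 12.5-fold (8.89 to 17.5) lay 3.71 kb past the end of the gene. All 3 held an AP-1 motif, and E2F1 overlapped the first and the last.

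MXD3 (chr5:176728462-176739758, minus strand) was the member whose promoter held all 3 factors. The strongest E2F1 peak, 905 bp wide with 191 fragments, covered 2 MYC peaks and the Fra-1 peak. The MYC peaks of the promoter were 7.49-fold, 6.36-fold (4.21 to 9.07) and 5.62-fold (3.60 to 8.93), and 1.29% of protein-coding genes had as many MYC promoter peaks. The E2F motif shown above lay 7.5 bp from the E2F1 summit and 12.5 bp from a MYC summit, which were 5 bp apart. The Fra-1 summit stood 378 bp from the E2F1 summit and 71 bp from the nearest MYC summit. A further 3 E2F1 peaks, classed as gene body and of 5.56- to 23.3-fold, also lay in promoters of the neighbours PRELID1 and RAB24.

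MXD4 (chr4:2249159-2263836, minus strand) was the member with the least occupancy among those bound. Its E2F1 peak, 691 bp upstream of the TSS, rested on 15 fragments and had a −log10 q of 4.53, the lowest of the 8 members' strongest E2F1 peaks. The nearest MYC and Fra-1 peaks were both 151 kb away. A stronger E2F1 peak of 24.4-fold (19.4 to 30.3) in its flank lay in the promoters of HAUS3 and POLN.

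MXI1 (chr10:111967363-112047123, plus strand) has 37 annotated start sites, the most of the members, and its promoter windows sum to 22.8 kb. Its peaks fell into 2 groups. Near the canonical TSS, 4 E2F1 peaks of 4.72- to 8.13-fold lay between 112 bp upstream and 3618 bp downstream, with a MYC peak of 5.10-fold (3.74 to 6.78) at 3694 bp. The E2F1 peaks of 5.56- and 4.72-fold also overlapped a promoter window of a gene that has no symbol and is not protein-coding. At start sites further along the gene, E2F1 peaks of 13.0-fold and 7.05-fold (4.64 to 10.5) had summits 18232 and 18722 bp downstream of the canonical TSS, and the stronger MYC peak, 7.47-fold, lay at 18671 bp. With start sites of the canonical transcript alone, MXI1 had no MYC promoter peak, and its strongest E2F1 peak was 5.56-fold. A Fra-1 peak of 5.45-fold (3.58 to 7.97) lay in an intron between the groups.

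MNT (chr17:2287367-2304398, minus strand), the MAX partner regarded as the main antagonist of MYC in proliferating cells, had the largest number of promoter peaks for both MYC and E2F1. It had 6 MYC promoter peaks of 5.73- to 12.2-fold, as many as at 0.0498% of protein-coding genes, and 10 E2F1 promoter peaks of 5.96- to 28.1-fold, as many as at 0.209%. Its promoter windows sum to 17.3 kb, wider than those of every other member but MXI1. Around the canonical TSS, 5 MYC peaks lay between 633 bp upstream and 1542 bp downstream of it, and the sixth 7601 bp downstream at a start site inside the gene, where its summit was 2 bp from an E2F1 summit of 25.3-fold (19.5 to 32.6) with the E2F motif TTTGCCGC. Every MYC promoter peak overlapped an E2F1 peak, but the summits around the canonical TSS were often apart, with distances of 11 to 381 bp. Fra-1 had no peak in the gene, and its nearest peak of 7.26-fold (4.78 to 10.3) was 4.23 kb upstream.

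MLX (chr17:40719090-40725257, plus strand) had 2 MYC promoter peaks of 7.61-fold and 6.28-fold (4.03 to 9.99), in exons 213 and 758 bp downstream of the canonical TSS. Both lay under 1 E2F1 peak of 1287 bp, whose summit was 57 bp downstream of the TSS. All 3 also overlapped promoter windows of COASY, the coenzyme A synthase gene that precedes MLX on the chromosome. MLX had 15 E2F1 peaks in all, the most of the members, of which 11 were in the flanks. No Fra-1 peak lay in the gene, and the 3 in its flank were all in promoter windows of COASY or ATP6V0A1.

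**Figure D3:**
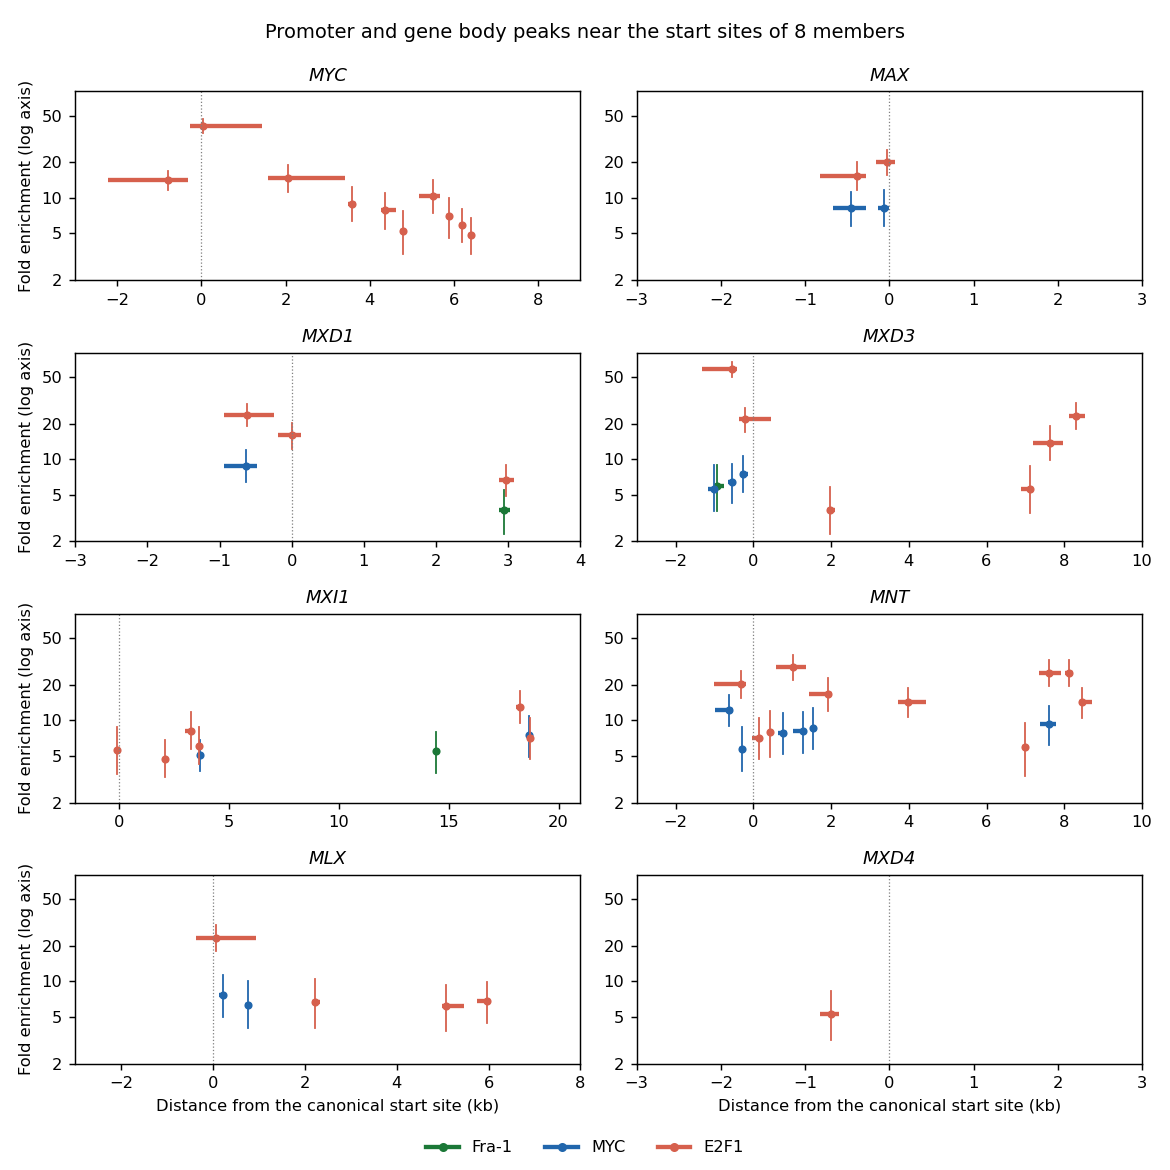
Promoter and gene body peaks near the start sites of the 8 members with a promoter peak, by distance in kb from the canonical TSS along the strand of the gene. Horizontal bars span the peaks at their fold enrichment (log axis), points mark summits and vertical lines 95% Poisson intervals. E2F1 peaks lie over each MYC peak, 10 E2F1 peaks cover the MYC gene with no MYC peak among them, and MNT has 10 E2F1 and 6 MYC peaks.

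By place, the 3 factors differed at the members. Of 22 MYC peaks, 16 were promoter peaks, none was a gene body peak and 6 were flank peaks, and all 6 flank peaks lay in promoters of other genes. Of 75 E2F1 peaks, 33 were promoter, 11 gene body and 31 flank peaks, 22 of the last in promoters of other genes. Of 18 Fra-1 peaks, 1 was a promoter, 5 were gene body and 12 were flank peaks, 5 of these in promoters of other genes. Promoter peaks thus made up 72.7% of MYC peaks around the members, against 28.3% around all protein-coding genes in the same windows, and 44.0% against 27.3% for E2F1. For Fra-1 the shares were 5.56% and 12.7%. The class of a peak depends on the annotated start sites, of which the members have more (median 8.5 against 5). With 1 canonical transcript per gene, E2F1 peaks were 20 promoter, 24 gene body and 31 flank peaks. The MYC peaks were then 13, 3 and 6. The shares over all genes were not calculated in that setting, and the part of the start sites in the difference was not tested. Peaks of 1 gene share their windows and are not independent, and MNT alone gave 6 of the 16 MYC and 10 of the 33 E2F1 promoter peaks. With the flanks included, 7 of 10 members had a Fra-1 peak (55.8% of protein-coding genes), 6 a MYC peak (39.5%) and 9 an E2F1 peak (83.0%).

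**Figure D4:**
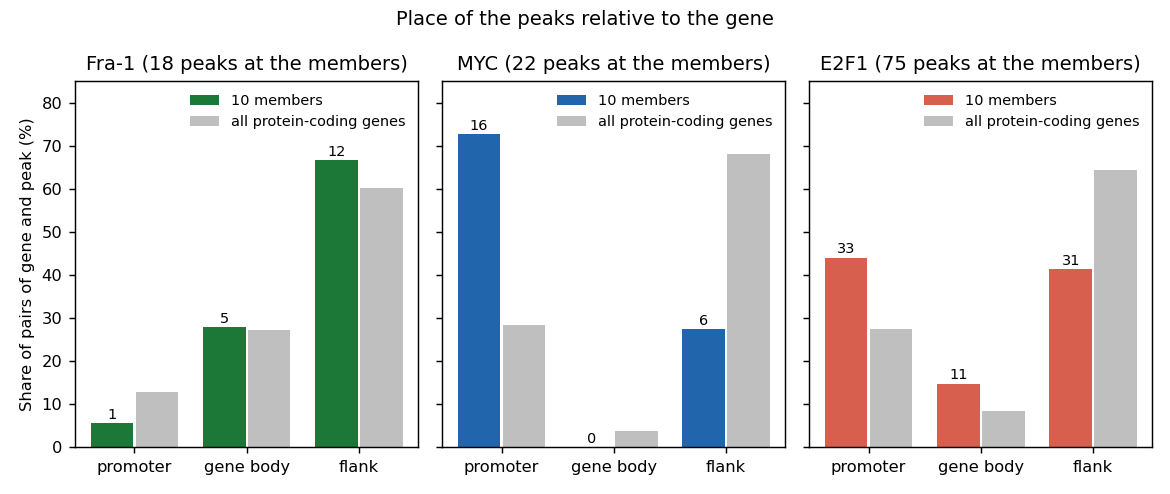
Share of peaks in promoters, gene bodies and 50 kb flanks for the 10 members (colour, with the number of peaks above the bar) and for all protein-coding genes (grey), in percent of the pairs of gene and peak of each factor. MYC has 16 of 22 peaks in promoters of the members and none in gene bodies, and Fra-1 has 1 of 18 in promoters.

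All 22 MYC peaks around the members overlapped an E2F1 peak. In promoters this was 16 of 16, where 97.5% of all MYC promoter peaks did so, and the median distance between the summits was 75.5 bp against 83 bp for all. The reverse did not hold, since 12 of 33 E2F1 promoter peaks at the members overlapped a MYC peak, against 13.7% of all E2F1 promoter peaks. At the level of genes, E2F1 occupied the promoters of all 6 members that MYC did, and it did so at 99.7% of all genes bound by MYC, so the members did not stand apart. The members bound by E2F1 without MYC were MYC and MXD4, which had the second highest and the lowest E2F1 values. Of the 18 Fra-1 peaks, 14 overlapped an E2F1 peak, among them all 6 that lay in a promoter of a member or another gene (75.1% of all Fra-1 promoter peaks). Of the 12 that lay in no annotated promoter, 8 did so, a share near that of all such Fra-1 peaks (56.6%), with a median summit distance of 23 bp, and none overlapped a MYC peak (3.21%).

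Peaks of all 3 factors overlapped in 5 regions around the members, and 1 of these was in a member's own promoter. This was the 53 bp stretch chr5:176739849-176739901 upstream of MXD3, where a Fra-1 peak of 5.88-fold, a MYC peak of 5.62-fold and the E2F1 peak of 58.0-fold met. The summits to which these values belong lay outside the stretch. Those of Fra-1 (chr5:176739831) and MYC (chr5:176739902) were close to its ends, and that of E2F1 (chr5:176739453) was 449 bp from that of MYC. The levels within the stretch are thus not known, least of all that of E2F1. The other 4 lay in promoters of neighbouring genes: FNTB, a farnesyltransferase subunit, beside MAX (chr14:65453477-65453578), SGSM2 beside MNT (chr17:2262929-2263166), and ATP6V0A1, a subunit of the vacuolar proton pump, and COASY beside MLX (chr17:40672062-40672249 and chr17:40714064-40714221). At their own summits, which need not lie in the common stretch, the peaks that met in these 4 regions were between 7.16- and 11.9-fold for Fra-1, 5.90- and 8.17-fold for MYC and 16.0- and 48.5-fold for E2F1. No region was left under a reciprocal overlap of 50%. The E2F1 peaks of the 5 regions were wider than the Fra-1 and MYC peaks.

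The AP-1 motif was frequent under Fra-1 summits, while E-boxes and E2F motifs were rare under the MYC and E2F1 summits around the members. Both strands of the 50 bp to either side of each summit were searched for the E-box CACGTG, the variant CACGCG, the AP-1 motif, and the E2F motifs TTTCCCGC, TTTGGCGC, TTTCGCGC and TTTGCCGC. Of 18 Fra-1 peaks around the members, 13 had an AP-1 motif (53.3% of all Fra-1 summits and 1.77% of windows 2 kb to the side), including all 5 gene body peaks and the promoter peak at MXD3. Of 22 MYC peaks, 1 had an E-box (16.8% of all MYC summits, 1.41% to the side), 5 had the variant (11.3% of all) and 2 had an E2F motif (1.81% of all). The 16 promoter peaks gave 1 E-box, at MAX, and 3 variants, at MNT, MLX and MXI1. Within whole peaks, 6 of 22 MYC peaks held an E-box (24.1% of all) and 8 the variant (19.3% of all). Of 75 E2F1 peaks, 3 had an E2F motif at the summit (1.68% of all E2F1 summits), 2 of them in the promoters of MXD3 and MNT, and 5 had an E-box (2.56% of all). By share, E-boxes and E2F motifs were thus no more frequent under the members' summits of their own factor than under those of the other. The E-box share rests on 1 MYC summit. The variant went the other way, at 5 of 22 MYC summits against 3 of 75 E2F1 summits. Within whole peaks the order turned, with an E-box in 27.3% of MYC and 17.3% of E2F1 peaks around the members. An E2F motif lay in 10.7% of these E2F1 peaks (8 of 75) and 9.09% of these MYC peaks (2 of 22). The 2 in MYC peaks were the MXD3 and MNT motifs shown above, which also lay under E2F1 summits. Whole peaks differ in length, with a median of 289 bp in the E2F1 list and 167 bp in the MYC list. These shares are thus not taken over equal stretches. An AP-1 motif lay under 7 of the 75 E2F1 summits (12.2% of all), and none of these 7 was in a member's promoter.

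Genes that work with the network were described from lists. These lists were chosen with earlier results of these data known, so their counts are no test of a library. Of the other network members, MLXIP had promoter peaks of all 3 factors (Fra-1 8.90-fold, MYC 7.45-fold and E2F1 13.3-fold), MGA had E2F1 alone at 28.2-fold, and MLXIPL had no promoter peak. Of 11 subunits of the SIN3 and histone deacetylase corepressors, through which the MXD proteins and MNT act, 11 had an E2F1, 4 a MYC and 1 a Fra-1 promoter peak, and none had all 3. Of 12 MYC coactivators, 12 had an E2F1, 7 a MYC and none a Fra-1 promoter peak. Of 9 genes for MYC protein turnover, 9 had an E2F1, 2 a MYC and 2 a Fra-1 peak. USP36, a deubiquitinase that stabilizes MYC, and AURKA, the mitotic kinase Aurora A, had all 3 (6.32-, 11.8- and 24.4-fold, and 6.80-, 5.32- and 20.3-fold, for Fra-1, MYC and E2F1). Of 16 textbook MYC target genes, 14 showed MYC at the promoter, 15 showed E2F1 and 2 showed Fra-1, the last at NME1 and EIF4E, which had all 3. The MYC peak at NME1 was 18.9-fold and that at EIF4E 9.49-fold. Over all protein-coding genes these shares were 13.2% (Fra-1), 17.8% (MYC) and 61.3% (E2F1).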

How the data were processed

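ChIP-Seq peaks of 3 factors were used, as listed for each library. According to the methods of the study, the authors trimmed reads (Trimmomatic 0.27 in the submitters' processing notes), aligned them uniquely to masked hg19 with Bowtie 0.12.5 and removed duplicates. They called peaks per library with MACS2 at a q-value cutoff of 0.01, so repeats that were masked can hold no peak. The deposited signal is the pileup at the summit, with the ChIP library scaled down to the input. The deposited fold enrichment is the ratio of pileup to local background, each with a pseudocount of 1, and the deposited p- and q-values are −log10 values. The background was recovered as the ratio of pileup + 1 to fold enrichment, less 1, and fragments from the pileup and the scaling. As a check of the scaling, the recovered background of strong peaks came down to 0.444 in the Fra-1 library, 0.562 in the MYC library and 0.430 in the E2F1 library. In the same order, the genome background calculated with scaling was 0.442, 0.367 and 0.450, and without it 0.532, 0.813 and 0.756. The MYC library was the furthest from its calculated value, and lay between those with and without scaling. The fragment numbers and intervals of MYC peaks rest on this scaling and are the least certain of the 3.

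The annotation was GENCODE 44 mapped to GRCh37, chromosomes 1 to 22 and X, without 9 peaks of Fra-1, 10 of MYC and 32 of E2F1 on other sequences. Overlap was counted from 1 bp. Sequences are printed for a selection of the sites with a motif, and others are not reported here. The members, lists and motifs were chosen with earlier results of these data known. Named genes are the members, genes that share a promoter peak with a member or hold a region of all 3 factors within 50 kb, MGA, MLXIP, MLXIPL and listed genes with all 3 factors. Other neighbours were named after their position was seen. There were no replicates, so no test was made. Scripts used Python 3.11.15, pandas 2.3.3, scipy 1.17.1 and pysam 0.24.0, and were tested on simulated data.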

Additional observations from a re-analysis of the deposited data

How the results depend on the processing

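Of 121 values recomputed under another setting for the counts of members, peaks, regions and motifs and for the shares of all genes, 91 stayed within 1.5 times. Of 59 for the strongest peaks of single members, 57 stayed within their Poisson interval or, for percentiles, within the percentiles of its bounds. With lists of equal length, members with a promoter peak numbered 0 for Fra-1, 2 for E2F1 and 0 for all 3 factors, and the shares of all genes were 3.41%, 25.6% and 0.866%. The Fra-1 peaks around the members were then 0 in promoters, 0 in gene bodies and 5 in flanks, the E2F1 peaks 2, 0 and 9, and no region held all 3 factors (0). With 1 canonical transcript per gene, 7.24% of genes had a Fra-1 promoter peak and 2.80% all 3, and the members had 3 MYC gene body peaks, 20 E2F1 promoter peaks and 24 E2F1 gene body peaks. The strongest E2F1 peak at MXI1 was then 5.56-fold. At a −log10 q of at least 5, 3.11% of genes had all 3 factors, and the E2F1 peak at MXD4 was lost. With flanks of 10 kb, flank peaks of Fra-1, MYC and E2F1 numbered 5, 1 and 9, and with 100 kb they numbered 27, 13 and 56. A reciprocal overlap of 50% left 0 shared regions. Within 100 bp of the summit, 3 MYC peaks had an E-box, and within whole peaks 6 had an E-box and 8 the variant, while 8 E2F1 peaks had an E2F motif. By −log10 q, the E2F1 peak at MYC stood at the 96.0 percentile. The cause of these moves was not tested, beyond the fewer peaks, narrower windows or longer stretches that each setting uses. No paired analysis was possible because each factor has 1 library.

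With 1 library per factor, the spread between cultures is unknown, and intervals cover counting error of ChIP fragments alone. Signal under the pileup that MACS2 called cannot be seen in these lists. The strength of a MYC peak rests on few fragments. The input, which sets the background, held fewer tags after filtering than the Fra-1, MYC and E2F1 libraries.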

Other observations

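Around the members, many peaks belonged to neighbours, which were named here after their position was seen. Beside MNT, the promoter shared by SGSM2 and TSR1, a ribosome assembly gene, had a MYC peak of 15.8-fold (12.5 to 20.1), higher than that of every member, and an E2F1 peak of 49.4-fold (42.2 to 57.5), with summits 11 bp apart. Beside MXD3, LMAN2, a cargo receptor of the secretory pathway, had a MYC peak of 5.69-fold (3.73 to 8.28) and an E2F1 peak of 32.3-fold (26.6 to 38.6). Beside MLX, strong E2F1 peaks without a MYC peak lay in the promoters of PSMC3IP (27.5-fold, 23.7 to 31.8), HSD17B1 (34.2-fold, 28.1 to 40.8) and TUBG1 with RETREG3 (46.2-fold, 39.1 to 53.8). Beside MXI1, the E2F1 peak of SMNDC1 was 31.3-fold (26.0 to 37.5) and had an E-box 5.5 bp from its summit.

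Downstream of MXI1, 3 Fra-1 peaks of 8.91-, 8.68- and 12.1-fold lay between 36.2 and 39.4 kb past the end of the gene, outside every annotated promoter. Each overlapped an E2F1 peak, of 6.73-, 6.85- and 10.23-fold, with summits 41, 29 and 10 bp apart, and no MYC peak lay there. An AP-1 motif was under all 3 E2F1 summits and 2 of the 3 Fra-1 summits. A further 2 E2F1 peaks of 4.04- and 5.43-fold lay beside them.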
